A study of Mus musculus with 18 samples.

Results

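The genes described here build or carry the sugar structures that selectins bind. They are Selplg, Gcnt1, B4galt1, St3gal1, St3gal4, St3gal6, Fut4 and Fut7, together with Hs3st3b1, which modifies the sugar chain heparan sulfate. These 9 genes were chosen by name, not by a threshold on their values, out of 18193 genes with a probe set of their own on the array. The choice was made with earlier results of these data known. Where a gene had several probe sets, the one with the largest variance over the 18 arrays was used, and the others are described beside the results of Gcnt1, St3gal6 and Hs3st3b1 and, for St3gal1 and Fut4, with the uncalled genes. A probe set is a group of short probes on the chip that together report 1 transcript or a few.

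RNA came from freshly sorted CD4+ cells of the spleen and lymph nodes of mice of the B6;129 strain. All mice were heterozygous at FoxP3, whose product is the lineage factor of regulatory T (Treg) cells. 1 allele carried the reporter hCD2 and the other, always wild type (WT), carried GFP. Mutant Treg cells were hCD2+GFP- cells whose hCD2 allele was A384T, I363V or R397W (3 arrays each). WT Treg cells were GFP+ cells from the A384T mice (3 arrays), hCD2+ cells from mice with WT alleles only (2 arrays, numbered 3 and 4) and GFP+ cells from such WT mice (2 arrays). CD4+ cells with neither reporter, the conventional T cells (Tconv), came from WT mice (2 arrays). Every mutant Treg cell therefore developed beside WT Treg cells in the same animal. Whether arrays of a group came from separate animals is not stated in the labels, so each p measures only the spread between these arrays.

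Selectins are adhesion receptors that let leukocytes roll along vessel walls. Their ligand on T cells is mainly PSGL-1, the product of Selplg, which binds only when its sugars end in sialyl Lewis x, a cap of sialic acid and fucose. Gcnt1 makes the core-2 branch on which that cap is usually built in T cells, B4galt1 extends it with galactose, sialyltransferases of the St3gal family add sialic acid, and Fut7 and Fut4 add fucose. In activated T cells Gcnt1 and Fut7 are known as regulated steps. Hs3st3b1 belongs to another pathway and adds a late, rare sulfate group to heparan sulfate.

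The promoters of Gcnt1, St3gal6 and Hs3st3b1 are shown because these genes were called in several comparisons. Each sequence runs 5′ to 3′ over the 250 bases before the most upstream start in the RefSeq promoter table (GRCm38.p6), and capitals mark a match to the Runx motif TGTGGT.
Gcnt1 (chr19:17372845-17373094, minus strand): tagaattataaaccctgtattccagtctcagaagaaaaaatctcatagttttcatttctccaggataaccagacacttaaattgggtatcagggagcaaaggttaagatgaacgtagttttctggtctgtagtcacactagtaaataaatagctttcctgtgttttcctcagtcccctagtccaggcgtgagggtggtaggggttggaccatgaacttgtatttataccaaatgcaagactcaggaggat
St3gal6 (chr16:58524254-58524503, minus strand): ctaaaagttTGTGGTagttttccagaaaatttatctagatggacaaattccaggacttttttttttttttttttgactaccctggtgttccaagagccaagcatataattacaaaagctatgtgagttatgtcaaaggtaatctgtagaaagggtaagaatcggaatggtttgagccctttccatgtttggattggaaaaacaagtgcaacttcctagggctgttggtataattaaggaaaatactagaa
Hs3st3b1 (chr11:63922285-63922534, minus strand): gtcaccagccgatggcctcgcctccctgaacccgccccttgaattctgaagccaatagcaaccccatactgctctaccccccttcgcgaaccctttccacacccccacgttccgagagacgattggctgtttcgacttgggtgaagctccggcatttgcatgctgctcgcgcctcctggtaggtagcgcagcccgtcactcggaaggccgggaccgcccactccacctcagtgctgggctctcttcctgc
3 motifs were searched on both strands: the forkhead core TGTTTA, the AP-1 motif TGANTCA and the Runx motif TGTGGT, which stand for Foxp3 itself and for factors known to work with it. The table held windows for 7 of the 9 genes. The windows of Gcnt1 and Hs3st3b1 held none of these motifs. The window of St3gal6 held 1 Runx match, at base -241 counted from the start, and Fut7, whose window lies inside the annotated span of the gene, held 1 at -43. B4galt1 held 1 at -24. The forkhead core was found in 12.0%, AP-1 in 6.7% and Runx in 14.0% of 32851 windows in the table. A match or its absence in these windows says nothing of binding.

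Array values below are on the log2 scale with the Tconv mean at 0, as the deposited table sets it for every probe set. They show differences between groups and no absolute level, and values of different genes are not compared as levels. Where arrays are said to lie apart without a share of all genes beside it, that share was not counted. Such a statement describes only the values printed. Changes are log2 differences ± SE from limma, a linear model fitted to all arrays and all 18193 genes, and a change is called where the p, adjusted by Benjamini-Hochberg over all genes, is under 0.05. Foxp3 was at 6.38 to 7.59 in all Treg arrays and at -0.07 and 0.07 in the Tconv arrays, so the sorted fractions match their labels for this gene. Of 8 T cell identity genes 6 were measured and none was called between mutant and WT Treg cells. Of the 4 Treg genes Foxp3, Il2ra, Ctla4 and Ikzf2, none was called between A384T and WT cells. Relative to WT hCD2, Ikzf2 was lower in I363V (-0.91, limma adjusted p = 0.0142) and R397W (-1.02, 0.00372), and Il2ra in R397W (-0.965, 0.0102). Relative to A384T, Il2ra was lower in I363V (-1.43), and Foxp3 (-0.70), Il2ra (-1.71), Ctla4 (-1.01) and the T cell gene Cd3e (-0.77) in R397W. Arrays of bulk cells cannot tell fewer expressing cells from less RNA per cell. Markers of myeloid cells differed between groups: over 10 markers the array medians were -0.63 to 0.05 in A384T, -0.22 to -0.05 in I363V, -1.20 to -0.80 in R397W, -0.41 to 0.26 in WT GFP cells of A384T mice, 0.14 to 0.18 in WT hCD2, -0.01 to 0.08 in WT GFP and -0.03 to 0.03 in Tconv arrays. Of the markers of other cells, in the comparisons with WT hCD2 and within A384T mice, none of 6 dendritic cell markers, none of 6 CD8 T and NK cell markers and 1 of 8 B cell markers was called (Cd22 in I363V, -1.03, limma adjusted p = 0.0476). Nkg7, a marker of CD8 T and NK cells, gave -1.62 in I363V (0.0884) and -1.62 in R397W (0.0501) against WT hCD2. Centred values do not show which of these markers were near 0, and the part of such cells in the results below was not tested.

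In WT Treg cells, 2 of the 9 genes were higher and 2 lower than in Tconv cells, where 3.81% of all genes were called higher and 2.03% lower (5.84% in all). The genes that rose were Gcnt1 and Fut7, which make the branch and the fucose cap. St3gal6 and Hs3st3b1 fell. The median change of the 9 genes was -0.24, against -0.01 over all genes. Markers of other cells differed in this comparison too: of the dendritic cell markers Itgax (-1.16) and Flt3 (-0.51) were lower, of the CD8 T and NK cell markers Eomes (-1.25) and Prf1 (-1.99) were lower, of the B cell markers Cd79b (2.21) was higher, and of the myeloid markers Cybb (1.57) was higher. Their part was not tested.

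The core-2 enzyme Gcnt1 stood at 1.65 and 2.58 in WT hCD2 and at 1.89 and 2.61 in WT GFP arrays, against -0.30 and 0.30 in Tconv arrays. The groups did not overlap, and the WT arrays numbered 1 and 3 lay below those numbered 2 and 4. The difference was 2.18 ± 0.29 (limma adjusted p = 0.000209), 4.54-fold. A second probe set of Gcnt1 gave 0.93 ± 0.16 (adjusted p = 0.00269). The fucosyltransferase Fut7 stood at 0.48 and 0.76 in WT hCD2 and at 0.49 and 0.98 in WT GFP arrays, against 0.13 and -0.13 in Tconv arrays. Its groups were also apart, with a difference of 0.68 ± 0.17 (adjusted p = 0.0319). That call was lost without Tconv array 1 (change of 0.80), Tconv array 2 (0.55), WT GFP array 2 (0.55) or WT hCD2 array 4 (0.61). Each of these fits leaves 1 array in the group concerned.

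St3gal6, which adds sialic acid to lactosamine ends, stood at -2.54 and -2.24 in WT hCD2 and at -1.84 and -2.31 in WT GFP arrays, against -0.04 and 0.04 in Tconv arrays. The difference was -2.23 ± 0.20 (limma adjusted p = 3.97e-06), and all WT Treg arrays lay below both Tconv arrays. Hs3st3b1 was at -3.55 and -3.58 in WT hCD2 and at -3.62 and -3.62 in WT GFP arrays, against -0.02 and 0.02 in Tconv arrays. The difference was -3.59 ± 0.21 (adjusted p = 5.83e-08). The other 3 probe sets of Hs3st3b1 gave -0.22, 0.02 and -0.32 and were not called, and of 4 others of St3gal6, 1 gave -1.96 (adjusted p = 0.000155) and 3 gave -0.22 to -0.10 and were not called. With the mean of all probe sets of a gene the differences were -1.03 for Hs3st3b1 and -0.93 for St3gal6, and both were called. The other sialyltransferases were not called: St3gal4, which acts on the same kind of ends as St3gal6, gave 0.62 ± 0.25 (adjusted p = 0.229), and St3gal1, which caps the unbranched core and so competes with Gcnt1 for substrate, gave -0.40 (adjusted p = 0.414). The second probe set of St3gal1 gave -0.33 and that of Fut4 -0.05, and neither was called. Fut4 (-0.36), B4galt1 (-0.24) and the scaffold Selplg (0.27) were not called either. WT GFP and Tconv arrays with the same number deviated together over genes (correlation 0.71), which this fit ignores. With these numbers as a block, WT GFP minus Tconv was called for St3gal4 (0.64, limma adjusted p = 0.00594) and Fut4 (-0.41, 0.0342). The block fit called 3347 genes over all genes, against 1063 in the fit reported.

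**Figure D1:**
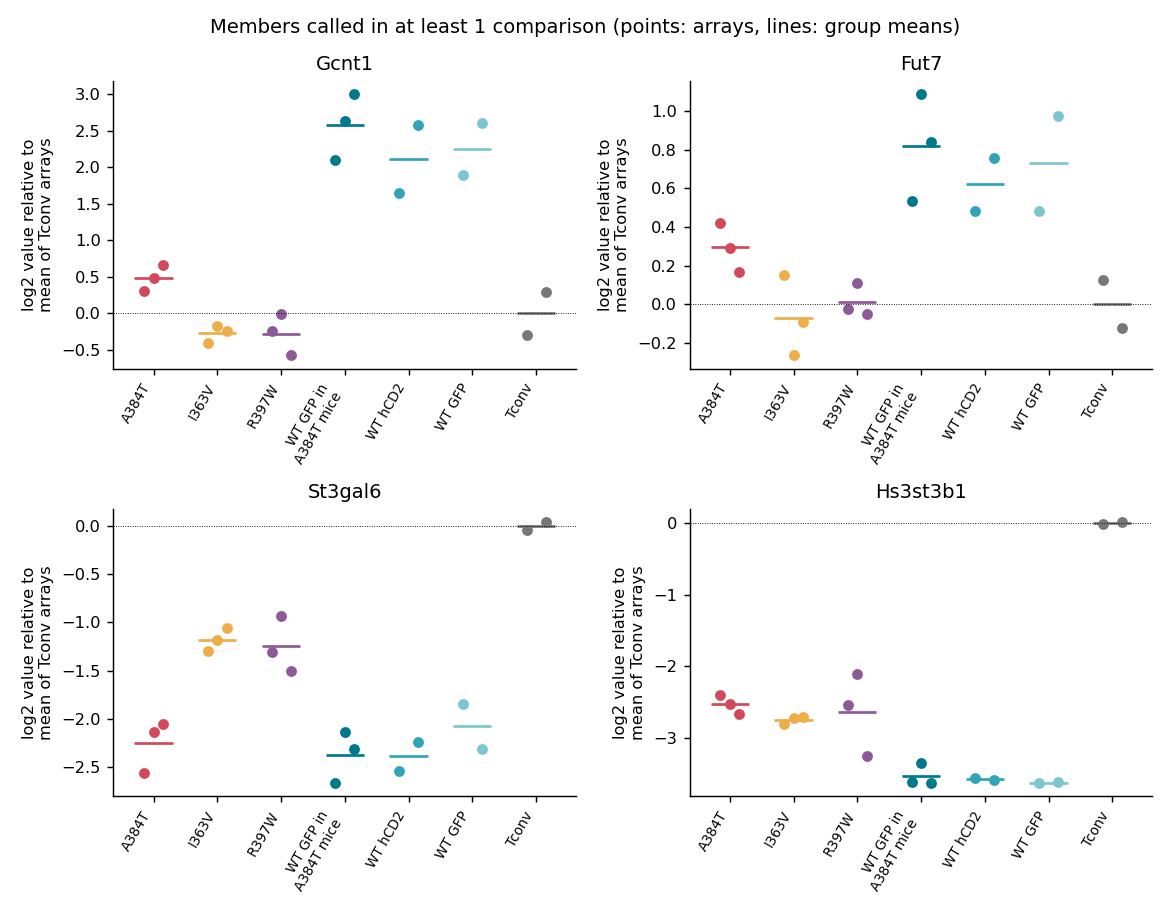
Log2 values of Gcnt1, Fut7, St3gal6 and Hs3st3b1 relative to the Tconv mean (y axis, a separate scale in each panel) in the 7 groups (x axis). Points are arrays and lines group means. Gcnt1 lies between -0.58 and 0.67 in the mutant Treg arrays and between 1.65 and 3.0 in the WT Treg arrays.

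The mutants were then set against WT hCD2 Treg cells, which carry the same reporter. These 3 comparisons share the same 2 WT hCD2 arrays, so their values are given side by side and are not separate evidence. Gcnt1 was the only one of the 9 genes called lower in A384T cells, where 0.280% of all genes were called, 0.143% lower and 0.137% higher. In I363V cells Gcnt1 was lower and St3gal6 higher (0.912% of genes called, 0.682% lower and 0.231% higher). In R397W cells Gcnt1 was lower, and St3gal6 and Hs3st3b1 were higher (2.26% of genes called, 1.55% lower and 0.715% higher). No comparison called Selplg, B4galt1, St3gal1, St3gal4, Fut4 or Fut7.

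Gcnt1 stood at 0.30, 0.48 and 0.67 in A384T arrays, at -0.41, -0.17 and -0.23 in I363V arrays and at -0.24, -0.01 and -0.58 in R397W arrays. The WT hCD2 arrays were at 1.65 and 2.58, so every mutant array was below both, and the I363V and R397W arrays lay in or below the range of the Tconv arrays. The change was -1.63 ± 0.31 in A384T (limma adjusted p = 0.0406), -2.39 ± 0.31 in I363V (0.0014) and -2.39 ± 0.31 in R397W (0.000688). The second probe set fell in R397W (-0.84 ± 0.17, adjusted p = 0.0224), and gave -0.69 in A384T (0.201) and -0.69 in I363V (0.104). Without WT hCD2 array 4, which leaves 1 array in that group, the change was -1.17 in A384T and -1.93 in I363V, and neither was called. The A384T call was also lost without A384T array 1, 2 or 3 (limma adjusted p = 0.144, 0.134 and 0.102). Those 3 fits called 31, 28 and 21 genes over all genes, against 51 with every array.

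By the probe set used, St3gal6 separated I363V and R397W from A384T cells. It stood at -2.56, -2.14 and -2.06 in A384T arrays, at -1.30, -1.18 and -1.05 in I363V arrays and at -1.31, -0.94 and -1.50 in R397W arrays, against -2.54 and -2.24 in WT hCD2 arrays. The I363V and R397W arrays were all above the WT hCD2 and the A384T arrays, and all below Tconv. Relative to WT hCD2 the change was 1.21 ± 0.21 in I363V (limma adjusted p = 0.012) and 1.14 ± 0.21 in R397W (0.00888), and A384T gave 0.14 ± 0.21 (0.909). Tested directly, St3gal6 was 1.07 ± 0.19 higher in I363V than in A384T cells (adjusted p = 0.00904; 1.14% of genes called, 0.253% higher) and 1.0 ± 0.19 higher in R397W than in A384T cells (0.00827; 3.13% of genes called, 0.907% higher). Markers of other cells differed in these 2 comparisons as well: Nkg7 was lower in I363V than in A384T cells (-2.01) and in R397W than in A384T cells (-2.02). Of the B cell markers Cd22 was lower in I363V than in A384T (-1.18) and Ms4a1 higher in R397W than in A384T (1.59), and of the myeloid markers Cybb was lower in both and Lyz2 in R397W. Their part was not tested. R397W minus I363V was -0.07, with a 95% interval of -0.47 to 0.33, and none of the 9 genes was called between them (0.0824% of genes called).

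Some of these St3gal6 calls were lost when 1 array was left out, and the size depended on the probe set. Leaving out a WT hCD2 array leaves 1 array in that group. Without WT hCD2 array 3 both calls against WT hCD2 were lost, with changes of 1.06 in I363V and 0.99 in R397W. Without WT hCD2 array 4 the I363V call was lost, although the change was 1.36. Without I363V array 3 the I363V change was 1.15 (limma adjusted p = 0.0529). That fit called 77 genes over all genes, against 166 with every array. The I363V minus A384T call was lost without A384T array 1 (0.92, adjusted p = 0.0518), where 133 genes were called over all genes, against 207. The other St3gal6 probe set that was lower in WT Treg than in Tconv cells gave 0.74 in I363V (0.347) and 0.37 in R397W (0.716) relative to WT hCD2, where R397W array 3 stood at -2.32 and the other R397W arrays at -1.40 and -1.27. Against A384T this second probe set gave 0.63 in I363V (limma adjusted p = 0.418) and 0.25 in R397W (0.693), neither called. In it R397W array 3 lay below all A384T arrays, which stood at -2.14, -1.77 and -1.81. The remaining 3 probe sets were not called in any comparison.

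Hs3st3b1 stood at -2.40, -2.53 and -2.66 in A384T arrays, at -2.80, -2.72 and -2.71 in I363V arrays and at -2.54, -2.11 and -3.25 in R397W arrays, against -3.55 and -3.58 in WT hCD2 arrays. All mutant arrays were above the WT hCD2 arrays and far below the Tconv arrays. The change was 0.93 ± 0.22 in R397W (limma adjusted p = 0.043), and A384T gave 1.04 ± 0.22 (0.0822) and I363V 0.82 ± 0.22 (0.131). The R397W call was lost without R397W array 1 (0.89, limma adjusted p = 0.116) or R397W array 2 (0.67, 0.0886). Those fits called 314 and 355 genes over all genes, against 412 with every array. It was also lost without WT hCD2 array 3 (0.95) or 4 (0.92), which leaves 1 array in that group. The 3 other probe sets of Hs3st3b1 were not called in any comparison, the one with Tconv cells included.

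Fut7 stood at 0.42, 0.29 and 0.17 in A384T arrays, at 0.15, -0.27 and -0.09 in I363V arrays and at -0.03, 0.11 and -0.05 in R397W arrays, against 0.48 and 0.76 in WT hCD2 arrays. No difference was called: -0.33 ± 0.18 in A384T (limma adjusted p = 0.691), -0.69 ± 0.18 in I363V (0.121) and -0.61 ± 0.18 in R397W (0.126). The scaffold Selplg differed from WT hCD2 by 0.15 ± 0.19 in A384T, -0.06 ± 0.19 in I363V and -0.11 ± 0.19 in R397W cells. The 95% intervals of these differences ran from -0.53 to 0.57 over the 3 mutants. B4galt1 had its lowest group mean in R397W, with arrays at -0.32, -0.61 and -0.66, against -0.10 and -0.24 in WT hCD2 arrays. The difference, -0.36 ± 0.19, was not called (0.51), nor was that between R397W and A384T cells (-0.60 ± 0.17, adjusted p = 0.0724).

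**Figure D2:**
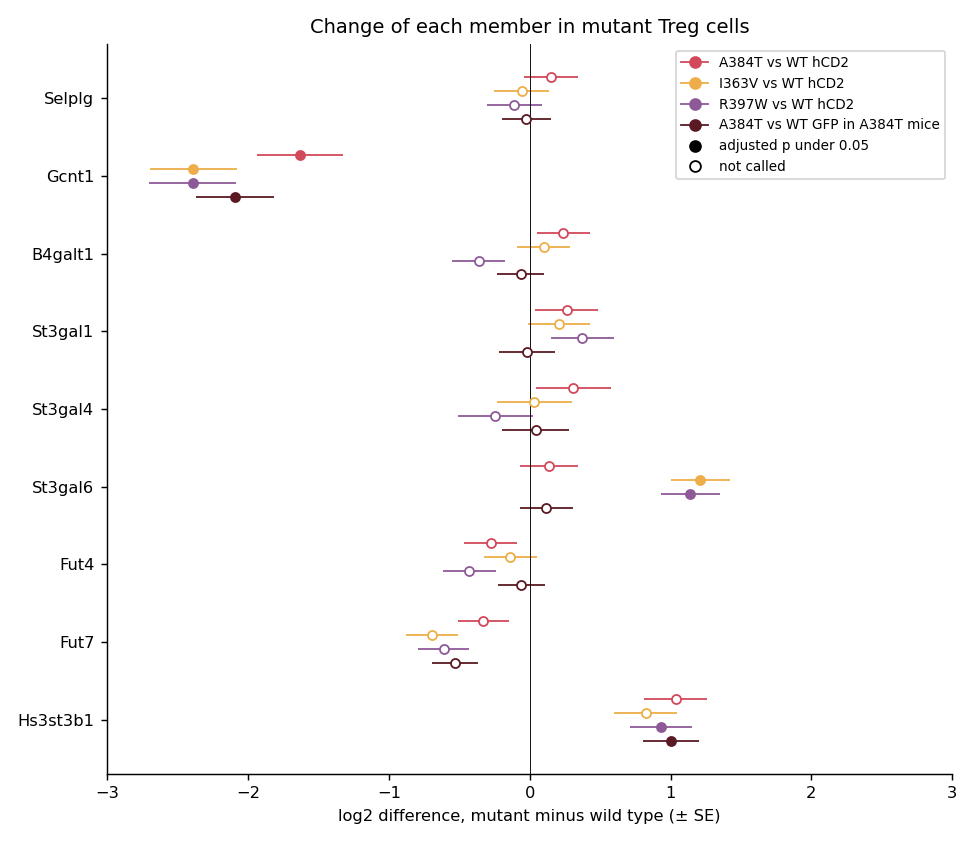
Log2 difference of each gene between mutant and WT Treg cells (x axis, ± SE) for the 4 comparisons, with filled points for a limma adjusted p under 0.05. Gcnt1 is lower in all 4, with changes of -2.39 to -1.63, and St3gal6 is higher in I363V and R397W but near 0 in both A384T comparisons.

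Myeloid markers are given beside these results. Relative to WT hCD2 their median difference was -0.68 in A384T, -0.56 in I363V and -1.25 in R397W. Of the 10 markers none was called in A384T, Cybb was lower in I363V, and Lyz2 and Cybb were lower in R397W. In the comparison within A384T mice none was called and the median was -0.21. The part of myeloid cells in the results of that comparison was not tested.

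That comparison sets A384T Treg cells against WT GFP Treg cells of the same genotype of mouse. 1 of the 9 genes, Gcnt1, was lower and 1, Hs3st3b1, was higher, where 0.522% of all genes were called, 0.352% lower and 0.170% higher. Gcnt1 stood at 0.30, 0.48 and 0.67 in A384T arrays, against 2.10, 2.63 and 3.0 in WT GFP arrays of A384T mice, a difference of -2.09 ± 0.28 (limma adjusted p = 0.00179), 4.26-fold. Its second probe set fell by 1.08 (adjusted p = 0.00391). Arrays with the same number deviated together across genes in these groups, which pairs them, and the pair differences of Gcnt1 were -1.80, -2.15 and -2.33. With the pair as a block the adjusted p was 1.81e-05.

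Hs3st3b1 stood at -2.40, -2.53 and -2.66 in A384T arrays, against -3.61, -3.35 and -3.63 in WT GFP arrays of A384T mice, a difference of 1.0 ± 0.20 (limma adjusted p = 0.0364; 0.000436 with the pair as a block). Without the block, leaving out any 1 of these 6 arrays ended the call (limma adjusted p = 0.0875 to 0.201). Those fits called 39 to 94 genes over all genes, against 95 with every array. Fut7 stood at 0.42, 0.29 and 0.17 in A384T arrays, against 0.54, 1.09 and 0.84 in WT GFP arrays of A384T mice. Its difference, -0.53 ± 0.16, was not called (adjusted p = 0.331) but was with the pair as a block (0.0475), and the pair differences were -0.12, -0.80 and -0.67. St3gal6 gave 0.12 ± 0.19, with pair differences of 0.11, -0.00 and 0.25, and the remaining genes gave -0.06 to 0.04.

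No difference was called between the WT Treg groups. Neither WT GFP cells of A384T mice against WT GFP cells of WT mice nor WT hCD2 against WT GFP cells gave a called gene among all 18193 in limma, where 473 and 462 genes had an unadjusted p under 0.05. Of the 9 genes only B4galt1 had such a p, in the first comparison (0.44 ± 0.19, unadjusted p = 0.0348). Gcnt1 differed by 0.33 (95% interval -0.33 to 0.99) in the first and by -0.14 (-0.86 to 0.59) in the second. WT GFP 1 and WT hCD2 3 deviated together over genes (correlation 0.77), as did WT GFP 2 and WT hCD2 4. The fit ignores this, so the absence of calls does not show that these WT groups are alike. The A384T difference corrected for the reporter difference, an interaction, was -1.96 ± 0.44 for Gcnt1 and was not called (adjusted p = 0.231; 0.0495% of genes called).

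Relative to Tconv cells, the mutants did not have Gcnt1 or Fut7 called in either direction, while St3gal6 and Hs3st3b1 were called lower in all 3 mutants (6.52% of genes called in A384T, 2.51% in I363V and 2.02% in R397W, with 2.38% lower in A384T, 1.02% in I363V and 0.967% in R397W). St3gal6 differed from Tconv by -2.25 in A384T, -1.18 in I363V and -1.25 in R397W cells. Hs3st3b1 differed from Tconv by -2.53 in A384T, -2.74 in I363V and -2.63 in R397W cells. Without Tconv array 2, which leaves Tconv array 1 alone, the St3gal6 call was lost in I363V (-1.13) and R397W (-1.20).

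Pooling the groups, a comparison chosen after the data were seen, set the mean of the 3 mutants against the mean of the 3 WT Treg groups. It called 4.12% of all genes, 3.03% lower and 1.09% higher, and 4 of the 9. Gcnt1 fell by 2.34 ± 0.17 (5.05-fold, limma adjusted p = 2.32e-06), and Fut7 fell by 0.65 ± 0.10 (0.00156). Hs3st3b1 was higher by 0.94 ± 0.12 (0.000366) and St3gal6 by 0.72 ± 0.12 (0.00182). With the mean of all probe sets of a gene Gcnt1 gave -1.58, Hs3st3b1 0.25 and St3gal6 0.27, all called. These means include the probe set used. Taken singly, no other probe set of Hs3st3b1 (-0.03 to 0.05) or St3gal6 (0.04 to 0.37) was called in this comparison. Over single arrays Gcnt1 had a lowest, median and highest value of -0.58, -0.17 and 0.67 in the 9 mutant arrays, against 1.65, 2.58 and 3.0 in the 7 WT Treg arrays. For Fut7 these were -0.27, 0.11 and 0.42 in the mutant arrays, against 0.48, 0.76 and 1.09 in the WT Treg arrays. Hs3st3b1 ran from -3.25 to -2.11 in the mutant arrays, against -3.63 to -3.35 in the WT Treg arrays. In these 3 genes the arrays did not overlap, as in 0.929% of all genes (0.742% lower and 0.187% higher). St3gal6 overlapped, since its A384T arrays lay among the WT ones. Of 10 myeloid markers 3 were called lower in the pooled comparison: Lyz2 (-1.10), Fcgr3 (-0.58) and Cybb (-1.31). The median of the 10 was -0.658, against 0.005 over all genes. No B cell, dendritic cell or CD8 T and NK cell marker was called. Of the 4 Treg genes Ikzf2 was lower (-0.78). The part of such cells in this comparison was not tested.

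**Figure D3:**
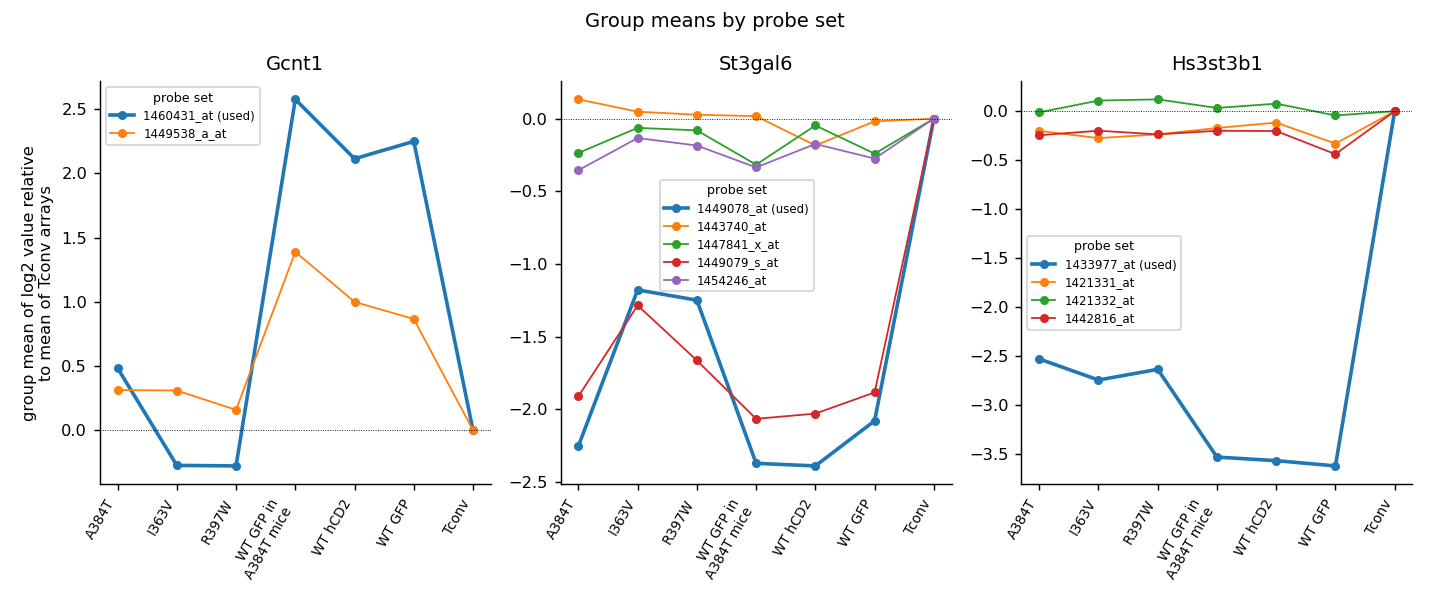
Group means of each probe set of Gcnt1, St3gal6 and Hs3st3b1 (y axis, log2 relative to the Tconv mean, separate scales) over the 7 groups (x axis), with the probe set used drawn thicker. Both Gcnt1 probe sets are higher in the WT Treg groups than in the mutants. 1 other St3gal6 probe set follows the one used, with smaller differences of I363V and R397W from A384T. No other Hs3st3b1 probe set follows the one used.

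The remaining genes had overlapping groups. Selplg ran from -0.22 to 0.59 over the 9 mutant arrays and from 0.12 to 0.52 over the 7 WT Treg arrays. St3gal4 ran from -0.07 to 1.16 in mutants and from 0.27 to 1.04 in WT Treg cells, and its lowest mutant value was 1 R397W array. Fut4 ran from -0.81 to -0.15 in mutants, against -0.63 to -0.04 in WT Treg cells. St3gal1 ran from -0.48 to 0.36 in mutants, against -0.76 to -0.07 in WT Treg cells. The second probe sets of St3gal1 and Fut4 were not called in any comparison. Against WT hCD2, that of St3gal1 gave -0.13 in A384T, 0.13 in I363V and 0.24 in R397W, where the one used gave 0.26, 0.21 and 0.37.

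**Figure D4:**
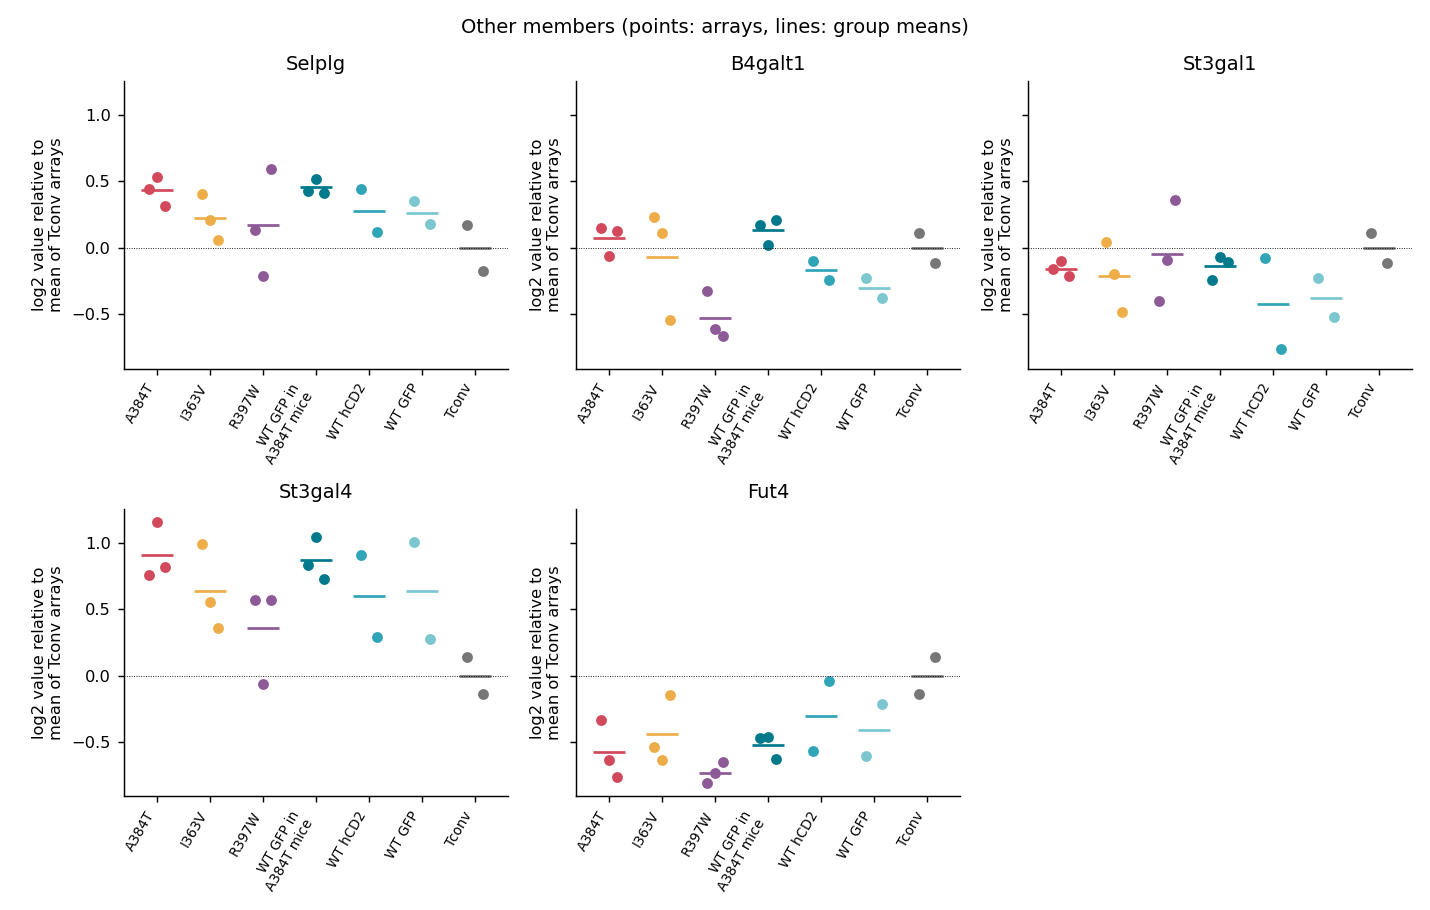
Log2 values of Selplg, B4galt1, St3gal1, St3gal4 and Fut4 relative to the Tconv mean (y axis, 1 shared scale) in the 7 groups (x axis). Points are arrays and lines group means. Mutant and WT Treg arrays overlap in each gene, and B4galt1 has its lowest group mean, -0.53, in R397W.

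Across the 18 arrays the 9 genes did not move as 1 block. Gcnt1 and Fut7 had a Pearson correlation of 0.91, St3gal6 and Hs3st3b1 of 0.84, and St3gal4 and Selplg of 0.86, while Gcnt1 and St3gal6 gave -0.65. These values describe arrays that share 7 groups, so the group differences enter them. By the same measure the genes most like Gcnt1 were Ttc39c (0.979), Cass4 (0.968) and Klrg1 (0.967). Those most like St3gal6 were Afp (0.958), Atp8b4 (0.941) and Arhgap29 (0.937), and those most like Hs3st3b1 were App (0.943), Xkrx (0.932) and Tspan9 (0.926).

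The wider sugar pathways were read from 7 lists that leave out the 9 genes and hold 111 measured genes. These lists too were chosen with earlier results of these data known, so their shares are descriptions. In WT Treg against Tconv cells 10 of the 111 were called higher (9.01%) and 3 lower (2.7%), against 3.81% higher and 2.03% lower over all genes. Shares of single lists rest on few genes and are descriptions. In WT Treg against Tconv cells, 4 of 20 sialic acid genes rose and 1 fell, with a list median of 0.14 against -0.01 over all genes. The largest were St6galnac3 (1.73 ± 0.30) and St3gal2 (1.53 ± 0.20), both sialyltransferases, the sialidase Neu3 (1.43 ± 0.14) and St8sia1 (-1.21), which makes disialylated gangliosides. Among 11 selectins and other ligand proteins Cd44 (1.44 ± 0.21), a hyaluronan receptor that can also carry selectin ligands, and Selp (1.13 ± 0.17), P-selectin itself, rose. In the other lists, 1 of the 21 genes on the O-glycan list rose, B3gnt5 (0.99), which itself acts on glycolipids. Of 8 sulfation genes 1 rose (Chst2, 0.88). None of 11 fucose genes was called. Of 29 heparan sulfate genes the core protein Sdc4 rose (2.04) and the sulfatase Sulf2 fell (-1.15). Of 11 N-glycan branching genes Mgat5 rose (1.08) and Man2a2 fell (-0.87).

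In the mutants against WT hCD2, 0 of the 111 genes were called in A384T cells (0.280% of all genes), 1 in I363V cells, lower (0.901%, against 0.682% of all genes lower), and 5 in R397W cells, all lower (4.5%, against 1.55% of all genes lower). Neu3 was lower in I363V cells (-0.74 ± 0.15, limma adjusted p = 0.0307). In R397W cells Neu3 (-0.72, 0.0195), Cd44 (-1.21, 0.00846), Sdc4 (-1.87, 0.0374), Mgat5 (-0.71, 0.0314) and Man1c1 (-0.84, 0.042) were lower. Within A384T mice B3gnt5, which starts the sugar chain of lacto-series glycolipids, was the 1 of the 111 that was called, and was lower (-1.05 ± 0.21, 0.0421). The medians of the 7 lists lay between -0.35 and 0.14 in these 4 comparisons, against -0.02 to -0.00 over all genes. Between mutants, and named after their values were seen, St3gal2, Chst2, Sdc4 and B4galt4 were lower in both I363V and R397W than in A384T cells. Sdc4 differed most, by -1.76 ± 0.39 in I363V (0.0441) and -2.24 ± 0.39 in R397W (0.00535).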

How the data were processed

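RNA was labelled by a two-cycle protocol and hybridised to Affymetrix mouse arrays, per the labels. The authors deposited log2 values from RMA, per the submitters' processing notes; its software and version are not given in the sources used here, and base 2 is assumed because RMA uses it. Each probe set was deposited centred on the 2 Tconv arrays. The chip annotation assigns 34945 of 45101 probe sets to 1 gene and 932 to several, which gave 18193 genes. The 9 members had 19 probe sets, and 5 members had several. All arrays were fitted with limma 3.58.1 in R 4.3.3 (group means, eBayes, 11 residual and 3.3 prior degrees of freedom), and tables and figures were made with Python 3.11.15. Members and lists were chosen with earlier results of these data known. All members were named, with up to 4 called genes of each list in the comparisons with Tconv, WT hCD2 and the WT cells of A384T mice, and the 3 genes most like each member called in at least 2 of the planned comparisons.

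Same-numbered A384T and WT GFP arrays of A384T mice correlated at 0.69, 0.65 and 0.58 in their deviations from the group means, over genes. The numbers pair these samples from the data, not from a label. WT GFP 1 and WT hCD2 3 also deviated together (0.77), and same-numbered WT GFP and Tconv arrays did so too (0.71), which the fit ignores. The fit was tested on simulated data (A384T against WT hCD2, 18193 genes). It found 16.4% of genes given a log2 change of 0.5, 78.4% at 1, 96.8% at 2 and 99.6% at 3, and 5.9% of its calls were false. The simulated noise was independent between arrays and genes, without the shared deviations above, so these shares need not hold for the real arrays. Alternatives were another probe set, the mean of all probe sets, robust eBayes, the more variable genes, centred arrays, fewer groups, the replicate block and leaving out each array. The pooled comparison of mutant and WT Treg cells was added after the data were seen. Promoter sequences came from the RefSeq table for GRCm38.p6.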

Additional observations from a re-analysis of the deposited data

How the results depend on the processing

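The precision is limited by 2 or 3 arrays in a group and by centred values, which show no signal over background. Alternatives changed how many of the 9 genes were called. With the mean of all probe sets of a gene 1 gene was called in R397W against WT hCD2 (3 in the fit reported). In A384T cells against the WT GFP cells of A384T mice 1 was called (2), and in R397W against A384T 0 (1). Over all genes these 3 comparisons gave 440 calls (412 in the fit reported), 113 (95) and 560 (569). With each array's median subtracted, 0 were called in A384T against WT hCD2 (1) and 1 within A384T mice (2). Hs3st3b1 then lost its call in R397W against WT hCD2 (limma adjusted p = 0.0549). Over all genes these 3 comparisons gave 53 calls (51), 89 (95) and 399 (412). St3gal4, not called in A384T against Tconv (0.0581), was called there with array medians subtracted (0.0452), the mean of all probe sets (0.0467), the more variable genes (0.0398) and only the compared groups (0.0285). When only the compared groups were fitted, 0 were called in A384T against WT hCD2 (1), in I363V against WT hCD2 (2), in R397W against WT hCD2 (3), in R397W against A384T (1) and in R397W against Tconv (2), and Fut7 lost its call in WT Treg against Tconv (0.15). Fewer arrays then estimate the spread. Calls over all genes were 10 against 51 in A384T, 34 against 166 in I363V and 32 against 412 in R397W, each against WT hCD2. For R397W they were 298 against 569 relative to A384T and 63 against 368 relative to Tconv. In WT Treg against Tconv they were 716 against 1063.

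Leaving out each array in turn gave 0 to 1 called genes in A384T, 0 to 2 in I363V and 1 to 3 in R397W against WT hCD2, and 1 to 1 in A384T cells against the WT GFP cells of A384T mice. It gave 0 to 1 in I363V against A384T, 1 to 2 in I363V and in R397W against Tconv, and 3 to 4 in WT Treg against Tconv. Gcnt1 in WT Treg against Tconv cells and within A384T mice was called in all 12 alternatives, and the 4 genes of the pooled mutant comparison in all 21, single other probe sets not counted. With the mean of all probe sets, which includes the one used, the pooled sizes were 0.25 for Hs3st3b1 (0.94 as reported), 0.27 for St3gal6 (0.72) and -1.58 for Gcnt1 (-2.34). No single other probe set of Hs3st3b1 or St3gal6 was called in the pooled comparison.

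With the replicate block, A384T cells against the WT GFP cells of A384T mice gave 952 called genes, against 95 without it. Between groups whose numbers do not pair the samples, the block called 0 of the 9 genes in I363V and in R397W against A384T. It called 1 in I363V and in R397W against Tconv. Over all genes, calls fell from 207 to 29 in I363V and from 569 to 48 in R397W, each against A384T. Against Tconv they fell from 456 to 56 in I363V and from 368 to 42 in R397W. WT GFP and Tconv arrays, 2 same-numbered pairs, gave 3347 called genes with the block, against 1063 in the fit of WT Treg against Tconv without it, and Fut4 (adjusted p = 0.0342) and St3gal4 (0.00594) were then called.

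The sign turned in probe sets that were not called themselves (limma adjusted p of 0.656 or more). For Hs3st3b1 they gave 0.0167 in WT Treg, 0.109 in I363V and 0.121 in R397W against Tconv, -0.120 and -0.0341 in R397W against WT hCD2, -0.0292, -0.0451 and -0.0457 within A384T mice, and -0.0310 in the pooled comparison. For St3gal6 they gave -0.0163 in I363V and -0.0338 and -0.0106 in R397W against WT hCD2, -0.0847 in I363V and -0.106 in R397W against A384T, and 0.132 in A384T, 0.0476 in I363V and 0.0265 in R397W against Tconv. The cause of these differences was not tested.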
